A study of Mus musculus with 2 samples.

Results

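Immediate-early genes are induced within minutes of a growth factor or stress signal without new protein synthesis, and several of their products then damp the signal that induced them. Described here are 36 such genes, chosen by symbol: the AP-1 factors Fos, Fosb, Fosl1, Fosl2, Jun, Junb and Jund, the related bZIP genes Atf3, Maff and Mafk, the EGR, KLF and NR4A factors, Ier2, Ier3, Ier5, Csrnp1, Phlda1, Btg1 and Myc, the ZFP36 mRNA decay factors, the DUSP phosphatases and the Sprouty genes Spry2 and Spry4. Each of the 36 matched a single identifier among 55487. Levels are in FPKM, fragments per kilobase of a gene's length, scaled to library size. The lengths fit the mean over a gene's transcripts, so levels set side by side between genes depend on the transcripts listed. Averaged over the libraries, 1 FPKM or more was reached by 33 of them and by 12561 genes in all. Nr4a2, at a mean of 2.22 FPKM, was the member just inside this limit, and Dusp4 (0.939 FPKM), Nr4a3 and Spry4 lay outside it.

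The series concerns how dead osteoblasts escape clearance in ageing, and holds 1 library of apoptotic osteoblasts from young mice and 1 from old mice. The labels give the same steps for both, starting from mouse bone pieces. After 3 passages the adherent cells served as bone marrow mesenchymal stem cells, and 3 days in osteogenic medium followed. Then 0.5 h of ultraviolet light left more than 90% of cells positive for Trypan Blue, which stains leaky cells. A treatment label, which is not explained, is day 0 for the young library and day 5 for the old one. Age and day therefore cannot be told apart, and the labels give no strain, genotype, age in months or number of animals. No spread between cultures could be measured, so no test was made, and every difference is one between 2 libraries.

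Library sizes worked out from the steps of the FPKM values were 16333396 (young) and 18114336 (old) reads. Which reads these totals counted was not stated. Summed osteoblast markers reached 20065 and 17058 FPKM over 10 genes. Most of this came from the matrix genes Col1a1 (8568 and 6788), Col1a2 (7482 and 5636) and Sparc (3633 and 2785). Alpl was low (2.78 and 3.28 FPKM) and Bglap, osteocalcin, rested on 3 and 6 reads. Other genes share 55.2% of the sequence of Bglap, and whether reads were lost for this was not tested. The markers did not move as a block. Sp7 (55.5 and 28.9 FPKM), Runx2 (92.1 and 72.7 FPKM) and those matrix genes were lower in the old library. Spp1 (224 and 1732 FPKM) and Dmp1 (0.377 and 4.85 FPKM) were more than 2-fold higher. What part the marker differences have in the results was not tested. Leukocyte markers summed to 26 and 23.6 FPKM over 10 genes, nearly all from Lyz2 and Cd68, with Ptprc at 1 and 0 reads and Adgre1, Itgam and Cd3e at 0. Endothelial (0.357 and 0.323) and adipocyte (0.0524 and 0.356) markers stayed under 1 summed FPKM over 5 genes each, with Emcn and Lep at 0. The erythroid genes Hbb-bs and Alas2 were at 0 in both libraries. Itgam and Hbb-bs share 80.5% and 68.6% of their sequence with other genes, so a 0 there does not show absence. Chondrocyte markers summed to 98.6 and 98.3 FPKM over 5 genes, from Col2a1 and Sox9, with Acan at 0. In bulk RNA, fewer cells of a type and less RNA per cell cannot be told apart.

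AP-1 is a dimer of FOS-type and JUN-type proteins, and in osteoblasts it takes part in the control of growth and matrix genes. Fos and Egr1 are classic targets of the kinase ERK, acting through ETS-type partners of the serum response factor SRF. DUSP phosphatases take phosphate off MAP kinases, Sprouty proteins damp signalling from receptor tyrosine kinases, and ZFP36 proteins bind AU-rich elements in mRNA and speed its decay.

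The members lay on both sides of even, and paralogs within a family often went opposite ways. On the log2 scale of FPKM + 1, old over young, 14 of the 33 measured members were above 0 and 19 below, with a median of −0.05 beside −0.07 for all genes. Without the members whose exons are overlapped by other genes over 10% or more of their bases, Fosl1 among them, the median was −0.29, beside −0.06 for all genes chosen alike. Fosl1 alone was 2-fold higher, 1 of 33 members (3.03%) against 1.97% of all genes, and 0 members were 2-fold lower, against 0.868%. At 1.5-fold, 6 members (18.2%) were higher, against 5.52% of all genes: Fosl1, Fosl2, Maff, Klf4, Zfp36l1 and Zfp36l2. As many, 6 (18.2%), were lower, against 4.47%: Ier2, Egr1, Atf3, Zfp36, Junb and Egr3. Fos, at −0.58, fell just short of that limit.

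Counting error was small for the abundant members. Brackets give 95% counting intervals for the FPKM ratio of old to young, which say nothing of the spread between cultures. The interval lay wholly above 1 for 10 of 33 members (30.3%), against 20.6% of all genes, and wholly below 1 for 15 (45.5%), against 33.5%. Abundant genes have narrower intervals. Among the 25 members with means of 10 FPKM or more, 9 (36%) lay above 1, against 23.0% of such genes. Below 1 lay 11 (44%), against 38.6%, which is near the background. The 1.5-fold counts in these abundant members were 5 higher (20.0%, against 3.56%) and 4 lower (16%, against 2.52%). At 2-fold they were 1 higher (Fosl1), against 1.28% of such genes, and 0 lower, against 0.327%.

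**Figure D1:**
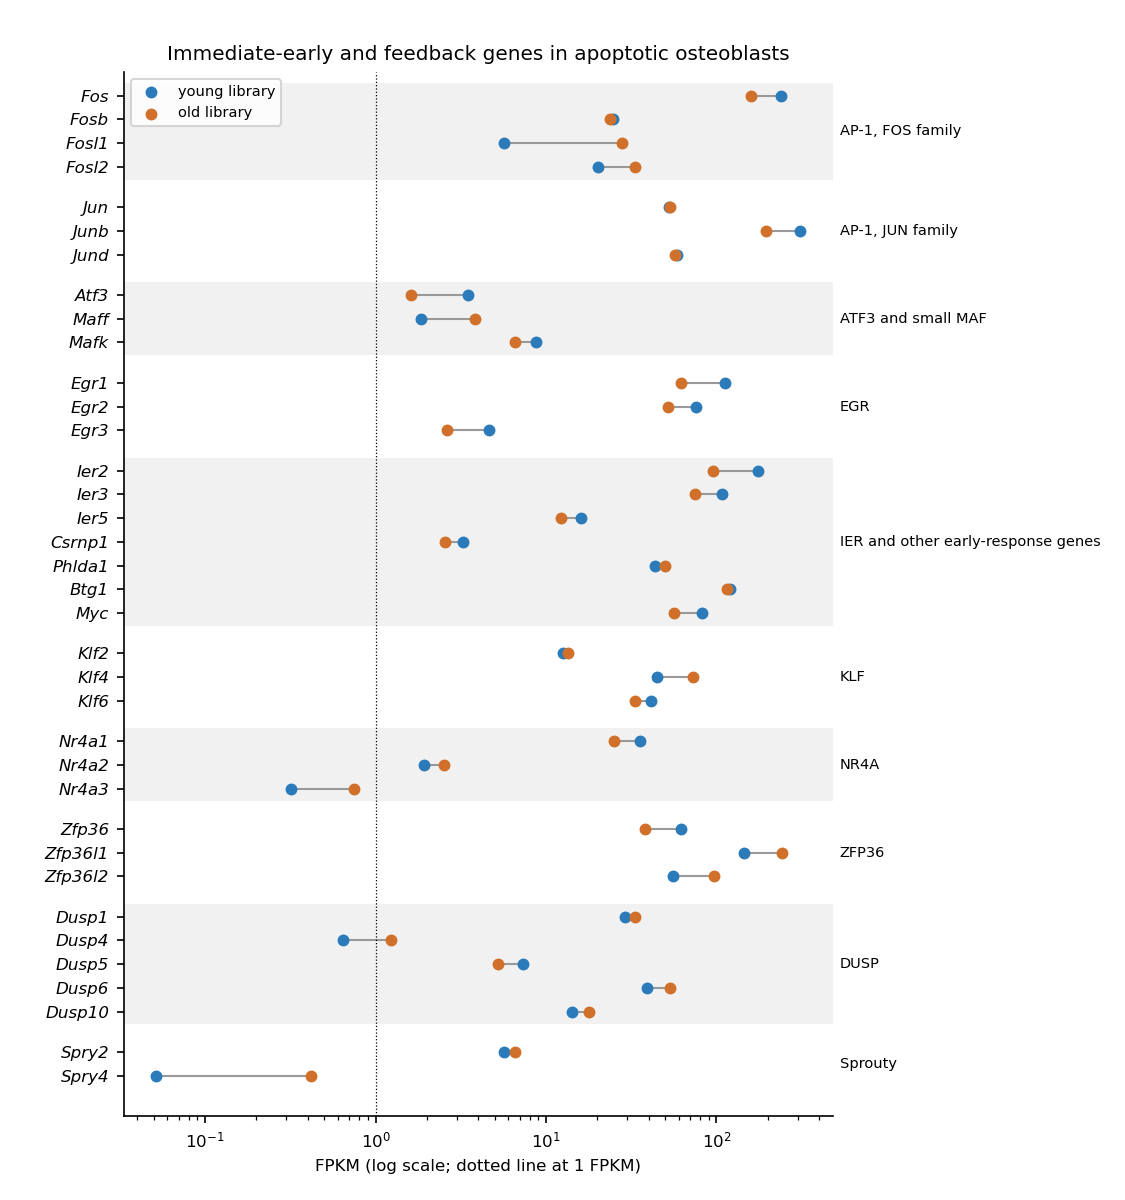
FPKM of the 36 members on a log axis, young library in blue and old library in orange, grouped by family, with 1 library per age and so no error bars; the dotted line marks 1 FPKM. Fosl1 is further right in the old library (28 against 5.68 FPKM), while Fos, Junb, Egr1 and Ier2 are further left.

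Start-site sequence came from RefSeq (GRCm38.p6), as windows of 300 bases from 250 before to 50 after a start, and was matched by symbol for 27 members. Fosl1, Egr1, Egr3, Ier2, Phlda1, Myc, Zfp36l2, Dusp4 and Spry4 had no entry. The SRF-binding CArG box, searched on both strands, was in 1.63% of all 32851 windows, in 1.54% of 9028 measured genes with a window, and in 3 members, Zfp36, Dusp5 and Egr2. The intervals of all 3 lay below 1, as did those of 15 of 33 members (45.5%) and of 33.5% of all genes. Their windows are printed because members of 3 families share this motif, the classic element of early genes. Capitals mark the CArG boxes, and letters run 5′ to 3′ along the gene. Zfp36 is at chr7:28379179-28379478 (minus strand), Dusp5 at chr19:53528895-53529194 (plus) and Egr2 at chr10:67537619-67537918 (plus).
Zfp36: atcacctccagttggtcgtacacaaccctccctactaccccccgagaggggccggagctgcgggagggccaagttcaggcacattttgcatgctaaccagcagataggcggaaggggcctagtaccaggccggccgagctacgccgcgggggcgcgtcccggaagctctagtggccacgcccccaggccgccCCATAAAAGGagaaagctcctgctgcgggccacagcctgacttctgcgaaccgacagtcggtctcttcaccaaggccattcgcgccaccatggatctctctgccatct
Dusp5: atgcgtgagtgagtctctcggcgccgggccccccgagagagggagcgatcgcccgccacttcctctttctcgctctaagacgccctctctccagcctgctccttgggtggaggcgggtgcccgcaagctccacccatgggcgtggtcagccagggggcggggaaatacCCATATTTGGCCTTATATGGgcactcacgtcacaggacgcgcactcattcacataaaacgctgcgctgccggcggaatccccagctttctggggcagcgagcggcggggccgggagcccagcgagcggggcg
Egr2: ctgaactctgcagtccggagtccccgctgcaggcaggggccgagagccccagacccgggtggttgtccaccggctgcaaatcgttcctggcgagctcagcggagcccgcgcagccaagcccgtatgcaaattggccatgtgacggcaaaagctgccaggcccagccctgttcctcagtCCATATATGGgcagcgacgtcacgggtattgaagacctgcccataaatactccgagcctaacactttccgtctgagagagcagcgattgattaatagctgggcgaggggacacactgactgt

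Dusp5 carries 2 adjoining boxes, whose first bases lie 82 and 72 bases before the start, whereas Zfp36 carries 1 at 58 bases and Egr2 1 at 72 bases. Another Egr2 start further upstream has a box of its own in its window. Over the 139 measured genes with a CArG box the median log2 ratio was −0.08, beside −0.07 over all measured genes with a window. The cyclic AMP element TGACGTCA was in Dusp1 and Maff (1.79% of windows, 3.71% of measured genes). The AP-1-like pattern TGANTCA, with any base at N and so looser than an AP-1 site, was in Csrnp1 and Zfp36l1 (7.81% and 5.70%). An EGR site, GCGTGGGCG or GCGGGGGCG, was in 8 members (29.6%), against 3.47% of windows and 8.03% of measured genes. Those were Fosb, Fosl2, Klf2, Klf4, Maff, Mafk, Nr4a1 and Zfp36, with ratios on both sides of 1. A match is a description of letters and not of binding, and no match says only that the letters are not in this window.

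Genes with few exons and AU-rich 3′ UTRs were common among the members. Exons were counted in the transcript of a gene that has the most, so genes with more listed transcripts can score higher. The median was 3 in the members, against 9 over 10908 measured protein-coding genes, and 4 members (11.1%) had a single exon, against 1.70%. The AU-rich core ATTTA was in the 3′ UTR of 35 of 36 members (97.2%), Ier2 being without it, against 71.3%. The nonamer TTATTTATT, which contains ATTTA and is a preferred site of ZFP36 proteins, was in 9 members (25%), against 8.22%. Both were searched on the transcript strand. The nonamer is printed in capitals for the ZFP36 family, whose own mRNAs carry it, and for Fos and Dusp1, known for rapid decay. Windows of 29 bases from GENCODE M21 transcripts lie at chr7:28376951-28376979 (minus strand), chr12:80108167-80108195 (minus), chr17:84184914-84184942 (minus), chr12:85477103-85477131 (plus) and chr17:26506159-26506187 (minus), on GRCm38.
Zfp36: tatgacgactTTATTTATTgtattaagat
Zfp36l1: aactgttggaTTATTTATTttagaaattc
Zfp36l2: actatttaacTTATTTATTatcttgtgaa
Fos: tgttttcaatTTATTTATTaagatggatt
Dusp1: gagctggtccTTATTTATTtaacaccccc

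Carriers of the nonamer went both ways. Of the 15 members with an interval below 1 it was in 2, Fos and Zfp36, and of the 13 with an interval above 1, low members included, in 6: Fosl2, Maff, Phlda1, Zfp36l1, Zfp36l2 and Dusp1. Csrnp1, whose interval spans 1, was the remaining carrier. The carriers' median log2 ratio was 0.19, and that of 897 measured protein-coding carriers was −0.12.

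The FOS family held the widest split among the members. Fosl1 (ENSMUSG00000024912, chr19:5447547-5455946, GRCm38 as for all positions here), which encodes FRA-1, a FOS-type protein without the strong activation domain of FOS, measured 5.68 FPKM (young) and 28 FPKM (old) on 84 and 460 reads. Its ratio was 4.94 [3.91, 6.31], and its log2 ratio of 2.12 stood at percentile 99.8 of all measured genes. Both FRA genes were higher in the old library, since Fosl2 (FRA-2, chr5:32135801-32157842) measured 20.1 FPKM (young) and 33.1 FPKM (old), ratio 1.65 [1.54, 1.77]. Fos itself (chr12:85473890-85477273) was lower there, with 239 FPKM (young) and 159 FPKM (old) and a ratio of 0.668 [0.638, 0.70]. Fosb measured 24.7 FPKM (young) and 23.9 FPKM (old), and its ratio of 0.965 [0.895, 1.04] has an interval that spans 1.

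The FOS genes together summed to 289 and 244 FPKM, young then old. Fos carried 82.6% and 65.2% of the sum, Fosl1 1.96% and 11.5% and Fosl2 6.93% and 13.5%, so the FRA genes held a larger share in the old library. Exons of Ccdc85b on the opposite strand overlap 57.2% of the exon bases of Fosl1, and no source states that strand was used in counting. Ccdc85b measured 18.1 and 20.2 FPKM, a log2 ratio of 0.15. How many Fosl1 reads came from it was not tested.

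Among the JUN genes, Junb (chr8:84974484-84978718), a weaker activator than Jun that can oppose it, was lower in the old library. Its FPKM was the highest of the members in the young library, where Egr1 had more reads (6902, against 5831). Junb measured 310.1 FPKM (young) and 196 FPKM (old), ratio 0.631 [0.606, 0.657]. Jun, the founding AP-1 gene, measured 52.5 FPKM (young) and 53.3 FPKM (old), ratio 1.02 [0.964, 1.07], and Jund, known for steady expression, 59.1 FPKM (young) and 57.4 FPKM (old), ratio 0.972 [0.908, 1.04]. Intervals of both span 1. The JUN sum was 422 and 306 FPKM, of which Junb carried 73.5% and 63.9%. For Jund, 52.6% of exon bases are overlapped by the antisense gene Gm11175.

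**Figure D2:**
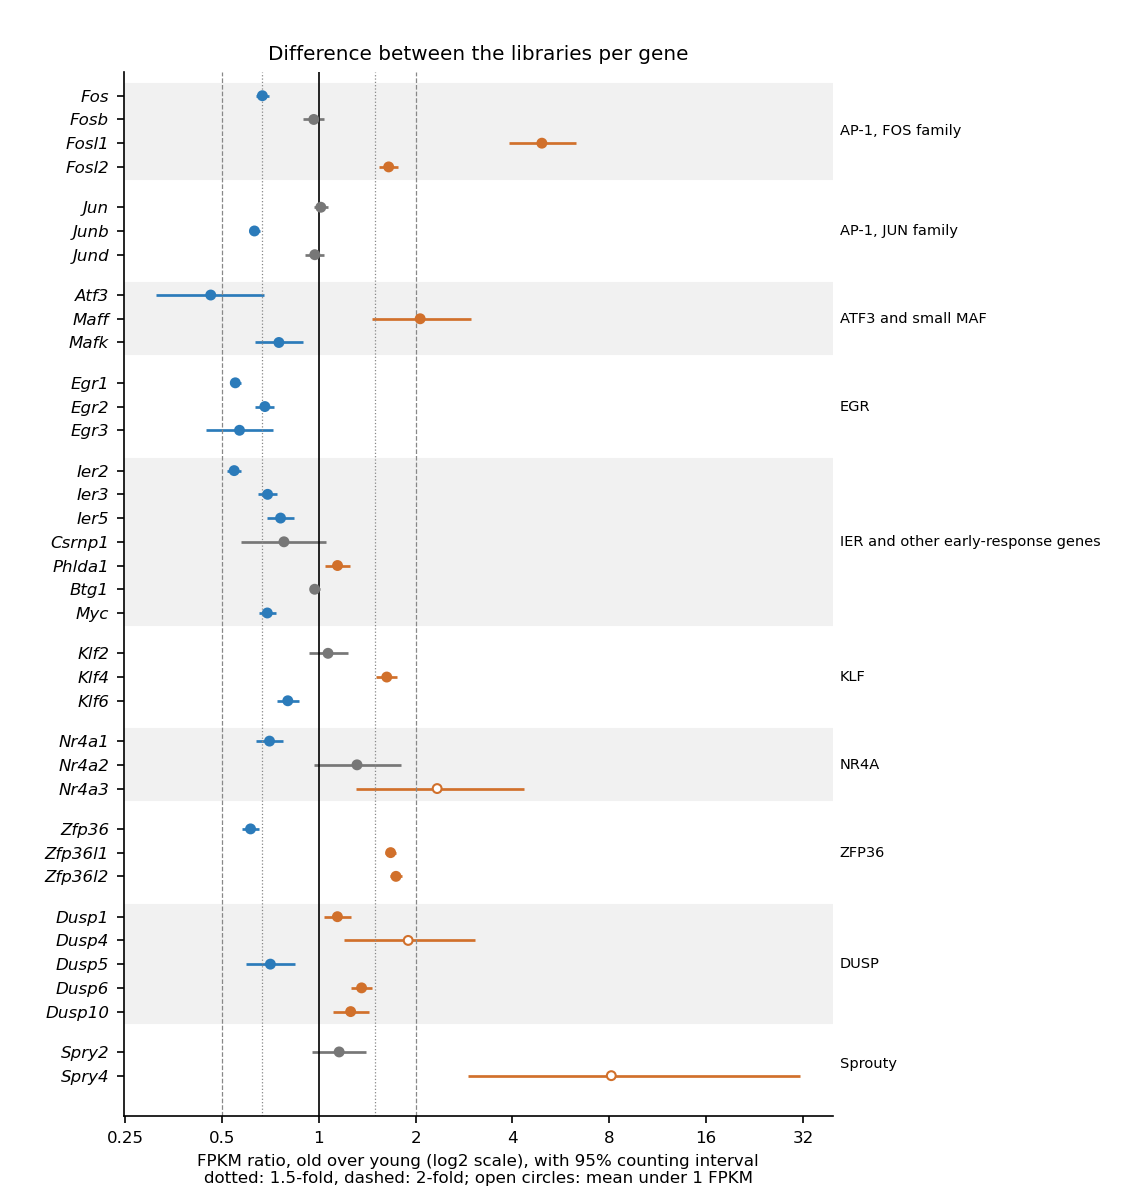
FPKM ratio, old over young, of each member on a log2 axis with its 95% counting interval; orange lies above 1, blue below 1, grey spans 1, open circles mark means under 1 FPKM, and dotted and dashed lines mark 1.5-fold and 2-fold. The 3 EGR genes lie below 1, and FOS, ZFP36, KLF and DUSP genes lie on both sides.

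Of the other bZIP genes, Atf3 (chr1:191170296-191218039), a stress-induced repressor, was lower in the old library at 3.50 FPKM (young) and 1.62 FPKM (old), on 84 and 43 reads, ratio 0.462 [0.312, 0.674]. Small MAF proteins lack an activation domain and bind DNA with CNC-type partners. Maff (chr15:79346621-79359076) was higher at 1.85 FPKM (young) and 3.81 FPKM (old), on 48 and 110 reads, ratio 2.07 [1.46, 2.96], while Mafk was lower at 8.69 FPKM (young) and 6.54 FPKM (old), ratio 0.752 [0.634, 0.890]. Atf3 and Maff are low genes, whose log2 ratios of −0.78 and 0.76 are understated by the added 1 FPKM, so neither reached 2-fold on that scale.

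All 3 EGR members, zinc finger factors, were lower in the old library. Egr1 (chr18:34859823-34864984), the best-known ERK-induced member, measured 112 FPKM (young) and 61.9 FPKM (old), ratio 0.550 [0.530, 0.572]. Egr2 (chr10:67535475-67542188), with the CArG box shown above, measured 75.9 FPKM (young) and 51.6 FPKM (old), ratio 0.680 [0.635, 0.728]. Egr3 measured 4.64 FPKM (young) and 2.63 FPKM (old), ratio 0.567 [0.446, 0.719]. The sum was 193 and 116 FPKM, and Egr1 carried 58.2% and 53.3% of it.

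Of the 7 other early-response genes, 4 had intervals below 1 and 1 above. Ier2 (chr8:84661331-84662852), a single-exon gene for a nuclear protein, had the lowest log2 ratio of the measured members, −0.87, at percentile 1.41. It measured 176 FPKM (young) and 95.9 FPKM (old), ratio 0.546 [0.520, 0.573]. Ier3, linked to survival signalling, measured 108 FPKM (young) and 74.7 FPKM (old), ratio 0.694 [0.648, 0.742]. The growth regulator Myc was also lower, at 81.8 FPKM (young) and 56.6 FPKM (old), ratio 0.692 [0.650, 0.737]. Ier5 followed with 16.1 FPKM (young) and 12.3 FPKM (old), ratio 0.761 [0.688, 0.841]. Phlda1 was slightly higher at 43.6 FPKM (young) and 49.9 FPKM (old), ratio 1.14 [1.04, 1.25], and 33% of its exon bases are overlapped by Gm28592. The antiproliferative gene Btg1 measured 119 FPKM (young) and 116 FPKM (old), ratio 0.971 [0.936, 1.01], and Csrnp1 3.27 FPKM (young) and 2.55 FPKM (old), ratio 0.780 [0.574, 1.06], both with intervals that span 1.

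Krüppel-like factors differed in direction. Klf4 (chr4:55527143-55532466), one of the reprogramming factors, was higher in the old library at 44.7 FPKM (young) and 72.8 FPKM (old), ratio 1.63 [1.51, 1.75]. Klf6 was lower at 41.4 FPKM (young) and 33.2 FPKM (old), ratio 0.801 [0.742, 0.866]. Klf2 measured 12.5 FPKM (young) and 13.4 FPKM (old), and its ratio of 1.07 [0.930, 1.23] has an interval spanning 1. Klf4 carried 45.3% and 61% of the family sum of 98.7 and 119 FPKM.

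The NR4A genes encode orphan nuclear receptors induced by many stimuli. Nr4a1 (Nur77), with 94.1% and 88.4% of the family sum, was lower at 35.5 FPKM (young) and 24.9 FPKM (old), ratio 0.703 [0.636, 0.777]. Nr4a2 measured 1.92 FPKM (young) and 2.52 FPKM (old), ratio 1.31 [0.965, 1.80]. Nr4a3, below the 1 FPKM limit, measured 0.321 FPKM (young) and 0.749 FPKM (old) on 17 and 44 reads, ratio 2.33 [1.31, 4.36], so it lay above 1 while the abundant member lay below.

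Within the ZFP36 family, Zfp36 went against its paralogs. Zfp36 (chr7:28376784-28380253), tristetraprolin, which is known for rapid induction, was lower at 62 FPKM (young) and 38.1 FPKM (old), ratio 0.614 [0.578, 0.652]. Zfp36l1 (chr12:80107754-80113013) was higher at 146 FPKM (young) and 244 FPKM (old), ratio 1.67 [1.60, 1.74], as was Zfp36l2 (chr17:84183931-84187947) at 55.8 FPKM (young) and 96.9 FPKM (old), ratio 1.74 [1.67, 1.81]. The sum was 263 and 379 FPKM, of which Zfp36 carried 23.5% and 10.1%. Gm26669, which was not analysed here, overlaps 55.9% of the exon bases of Zfp36l1. For Zfp36l2 the overlap with another gene was 2.97%.

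**Figure D3:**
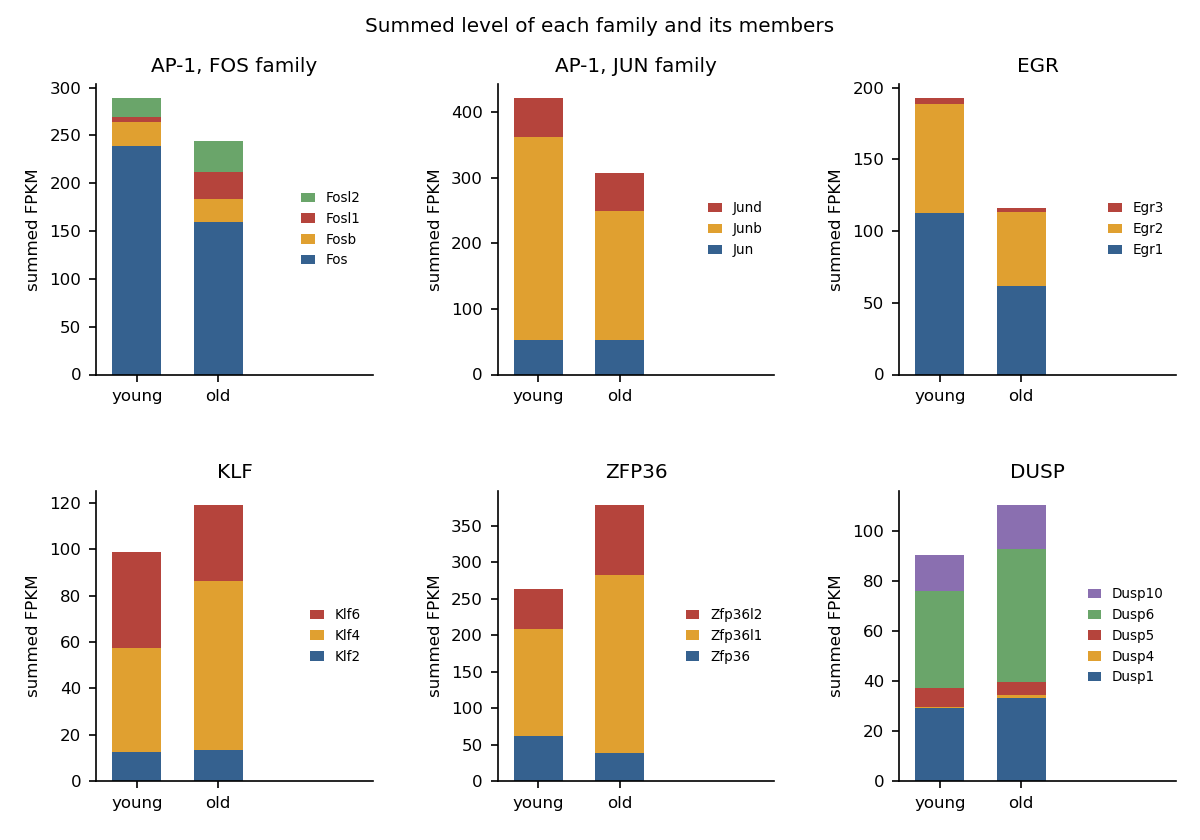
Summed FPKM of 6 families in the young and the old library, as bars from 0 with a coloured segment per member and no error bars. FOS, JUN and EGR sums are smaller in the old library (EGR 193 and 116 FPKM), the ZFP36 sum is larger (263 and 379 FPKM), and KLF and DUSP sums are slightly larger.

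DUSP genes had small differences, none of the 4 measured ones at 1.5-fold. Dusp6 (chr10:99263231-99267489), a cytoplasmic phosphatase for ERK, was higher at 39.1 FPKM (young) and 53.1 FPKM (old), ratio 1.36 [1.26, 1.47]. Dusp10, which acts on p38 and JNK, was higher at 14.2 FPKM (young) and 17.9 FPKM (old), ratio 1.26 [1.10, 1.43]. Dusp1, an immediate-early nuclear phosphatase, measured 29.1 FPKM (young) and 33.3 FPKM (old), ratio 1.14 [1.03, 1.26]. The nuclear ERK phosphatase Dusp5 (chr19:53529109-53542431), with the paired CArG boxes, was the lower one, at 7.35 FPKM (young) and 5.20 FPKM (old), ratio 0.707 [0.593, 0.843]. Dusp4, under the limit of 1 FPKM, measured 0.648 FPKM (young) and 1.23 FPKM (old) on 29 and 61 reads, ratio 1.90 [1.20, 3.06]. The 5 genes summed to 90.4 and 111 FPKM.

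Spry2 measured 5.69 FPKM (young) and 6.59 FPKM (old), with a ratio of 1.16 [0.955, 1.40] whose interval spans 1. Spry4 was barely read, at 0.0515 FPKM (young) and 0.418 FPKM (old) on 4 and 36 reads, ratio 8.12 [2.91, 31.4]. Over all 36 members the summed level was 1962 and 1731 FPKM.

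Related genes outside the group were read from 10 lists. All were drawn up with earlier results of these data known, so their counts lend no independent support to a direction. Some genes are in another list as well, among them 12 of the 57 other early-response genes listed. The MAP kinase cascade (26 genes) had none at 1.5-fold, against 5.52% of all genes higher and 4.47% lower. Its median log2 ratio was −0.10, and its genes ran from Map3k5 (0.38) and Rps6ka2 (0.38) to Araf (−0.29) and Map2k6 (−0.44). Among 19 SRF, ETS-type and CREB regulators (median 0.15), 2 (10.5%) were 2-fold higher, against 1.97% of all genes, and 0 lower, against 0.868%. These 2 were the ETS factors Etv4 and Etv5, known to follow ERK signalling. Etv4 measured 1.69 FPKM (young) and 11.8 FPKM (old) on 30 and 233 reads, ratio 7.0 [4.78, 10.6], and Etv5 3.67 FPKM (young) and 9.80 FPKM (old), ratio 2.67 [2.14, 3.35]. Srf, chosen after its values were seen, measured 120.0 FPKM (young) and 100.0 FPKM (old), ratio 0.833 [0.783, 0.887].

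Of 13 genes measured from a list of other Sprouty, SPRED and ERK feedback inhibitors, 11 had log2 ratios above 0, as did 5078 of all 12561 genes. The list was drawn broadly and also holds Nf1, Rasa1, Cbl and Spsb1, so its counts are not a measure of ERK feedback. Past 1.5-fold, 3 (23.1%) were higher, against 5.52% of all genes, and none was lower, against 4.47%. Their median was 0.33. Errfi1, an inhibitor of the EGF receptor, measured 7.04 FPKM (young) and 13.7 FPKM (old) and Spsb1 11 FPKM (young) and 19.4 FPKM (old), while Spred1 (−0.04) and Sh2b3 (−0.23) were lowest. The 11 other dual-specificity phosphatases had none at 1.5-fold, against 5.52% of all genes higher and 4.47% lower. Their median was 0.07, with Dusp22 (0.55) and Dusp16 (0.32) highest and Dusp11 (−0.40) and Dusp19 (−0.46) lowest. Receptor tyrosine kinases (13 genes) had a median of 0.41. Axl (1.39) alone was 2-fold higher (7.69%, against 1.97% of all genes) and Fgfr3 (−1.55) alone 2-fold lower (7.69%, against 0.868%).

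Other early-response genes (54 measured, median −0.03) also went both ways, with 3 at 2-fold higher (5.56%, against 1.97% of all genes) and 6 lower (11.1%, against 0.868%). Higher were the cytokine genes Ccl2 (1.69) and Il6 (1.04) and the bZIP factor Cebpb, at 84.7 FPKM (young) and 177 FPKM (old). Lower were Klf10 (−1.76), Btg2 (−1.34), a relative of Btg1, Gadd45g (−1.25), Id2 (−1.23), Id3 (−1.10) and Ccn2 (−1.05). Among 11 other KLF and SP factors (median −0.01), 2 (18.2%) were 2-fold lower, against 0.868% of all genes, and 0 higher, against 1.97%. The lower ones were Klf10 and Klf11, a related pair inducible by TGF-beta, with Klf11 at 7.76 FPKM (young) and 2.89 FPKM (old). Deadenylation genes (23) had a median of −0.05. Btg2 alone was 2-fold lower (4.35%, against 0.868% of all genes), and 0 were 2-fold higher, against 1.97%.

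The 12 AP-1 partners had none at 1.5-fold, against 5.52% of all genes higher and 4.47% lower. Their median was 0.01, and they ran from Bach2 (0.50) and Bach1 (0.37) to Atf7 (−0.39) and Jdp2 (−0.58). Of 23 genes known as AP-1 targets, 6 (26.1%) were 2-fold higher, against 1.97% of all genes, and 1 (4.35%) lower, against 0.868%, with a median of 0.53. Higher were Il1rl1 (2.68), Ccl2, Hmga2 (1.46), Timp1 (1.12), Hmga1 (1.12, most of its sequence shared with other genes) and Il6, and lower was the collagenase gene Mmp13 (−1.25), a known target of FOS and JUN dimers in bone. This list, like the others, was drawn up with earlier results of these data known, and its counts lend no independent support to a direction.

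**Figure D4:**
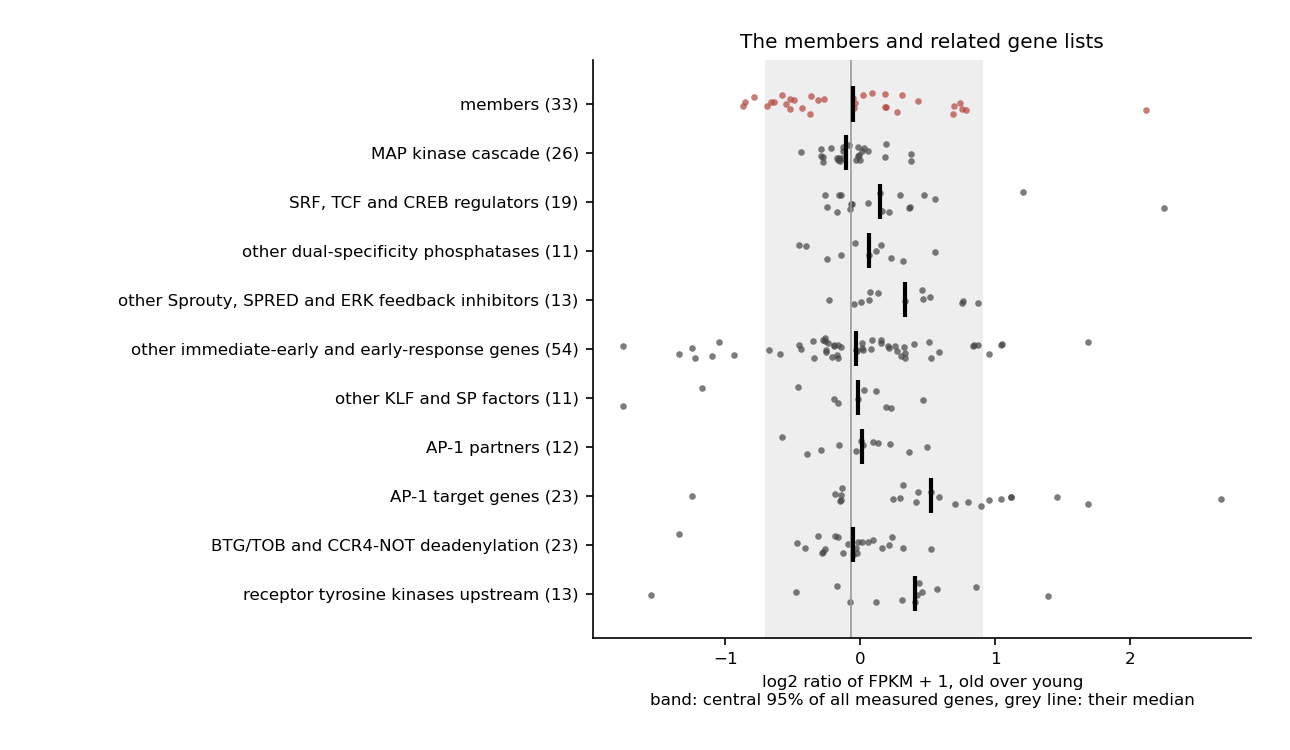
Log2 ratios of FPKM + 1, old over young, of the measured members (red) and of 10 related lists, a point per gene and a bar at each median; the grey band spans the central 95% of all measured genes (−0.70 to 0.90) and the grey line their median. Members spread to both sides of −0.05, and the AP-1 target median lies at 0.53.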

How the data were processed

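RNA from 1 young and 1 old library of apoptotic osteoblasts was sequenced. The authors deposited 1 FPKM value per gene and library. The build mm10 and the tools fastp, STAR, HTSeq and edgeR appear per the submitters' processing notes; what each tool did, its version, the gene models and the strand setting were not given in the sources used here. Gene symbols, positions and lengths were read from GENCODE M21 (GRCm38), where 55227 of 55487 identifiers were found.

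Reads were worked out from the FPKM steps using each gene's rounded mean transcript length. Short transcripts lower this mean: for Zfp36l1 it was 1440 bases, beside a 3′ UTR of 1835 bases. Levels and family shares compared between genes depend on these lengths, whereas the ratio of old to young within a gene does not. Within 0.01 of a whole read fell 97.6% of young and 97.57% of old values above 0; for Junb, Ier2 and Myc (3 members) the nearest whole read was taken. Counting intervals are exact Clopper-Pearson intervals (95%) of the old share of reads, rescaled to FPKM ratios; they cover counting error only, and PCR copies are not independent. Log2 ratios add 1 FPKM, which shrinks differences of low genes. No p-value was made. The interval code was run on simulated independent reads, which the interval assumes, so that run says nothing of PCR copies or reads shared between genes.

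Members and lists were chosen with earlier results of these data known. Motifs, 3′ UTR and exon features were added after values were seen; a shortened cyclic AMP element, an NF-kB site and TATAAA were also looked at and are not reported. All members are named, and from each related list all genes past 2-fold, or else the 2 highest and 2 lowest. The 3′ UTR is that of the longest coding transcript. Shared sequence was judged from 50-base words. Not every marker gene's value is reported here. Alternatives varied pseudocount, filter, scaling and exon overlap. Tools were Python 3.11.15, pandas 2.3.3, numpy 2.4.6, scipy 1.17.1 and matplotlib 3.10.9.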

Additional observations from a re-analysis of the deposited data

How the results depend on the processing

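With a pseudocount of 0.1 FPKM, 2 members (Fosl1 and Maff) were 2-fold higher, against 3.25% of all genes, and 1 (Atf3) was 2-fold lower, against 1.88%. The 28 measured members with under 10% of exon bases overlapped leave out Fosl1, Jund, Phlda1, Zfp36l1 and Dusp5. Of these 28, 0 were 2-fold higher, against 2.05% of all genes so chosen. Their median log2 ratio was −0.29, beside −0.06 over all genes so chosen. Scaling the old library to a median log2 ratio of 0 over all genes put the members' median at 0.02. It moved Fosb, Jund and Btg1 just above 0 (0.02, 0.03 and 0.03). It gave 13 intervals above 1 among 33 members, where the share of all genes was also larger, at 27.2% against 20.6%. Below 1 lay 15 members, as without the scaling, where the share of all genes was smaller, at 24.4% against 33.5%. Across the settings, with 25 to 36 members, the 1.5-fold counts ranged from 4 to 6 in each direction. The share of all genes ranged from 2.77% to 7.03% higher and from 1.11% to 6.85% lower. With a pseudocount of 5 FPKM, Maff, Atf3 and Egr3 fell short of 1.5-fold, and Egr3 also did under the scaling. Of 144 member log2 ratios under 4 alternatives, 14 left the main counting interval. Under the scaling these were Btg1, Fos, Junb, Egr1, Ier2, Zfp36l1 and Zfp36l2, of which Btg1 alone changed sign. For members on few reads, such as Spry4, depth limits the ratio. No paired analysis was possible because each age has 1 library without a replicate number, and no replicate could be left out.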

Other observations

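Among the other early-response genes, Id1, Id2 and Id3, which encode inhibitors of bHLH factors and are known BMP-responsive genes, were all lower in the old library; they were picked as a set after their values were seen. Id1 measured 44.7 FPKM (young) and 29.4 FPKM (old), ratio 0.657 [0.588, 0.733], Id2 had a ratio of 0.416 [0.374, 0.462] and Id3 a ratio of 0.466 [0.444, 0.490]. Egr4, the remaining EGR gene, measured 3.76 FPKM (young) and 1.49 FPKM (old) on 132 and 58 reads, ratio 0.396 [0.286, 0.543], on the same side of 1 as Egr1, Egr2 and Egr3. Etv1, a relative of Etv4 and Etv5, measured 2.08 FPKM (young) and 3.52 FPKM (old), ratio 1.69 [1.29, 2.24], on the same side as those genes.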
